A study of Mus musculus with 18 samples.

Results

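The genes described here encode the protein subunits of the mitochondrial respiratory chain and of ATP synthase. They were taken as the protein-coding genes of the deposited count table whose symbols name a subunit of complex I (Nduf genes and mt-Nd genes), complex II (Sdha to Sdhd), complex III (Uqcr genes and mt-Cytb), complex IV (Cox4 to Cox8 genes and mt-Co genes) or complex V, the ATP synthase (Atp5 genes and mt-Atp genes). The rule gave 101 of 56748 genes in the table, 88 of them encoded in the nucleus and 13 on the mitochondrial chromosome. Of these, 96 had enough counts to be tested, namely 83 nuclear and all 13 mitochondrial-encoded genes. The 5 others had 0 counts in all 18 libraries: Cox7b2, Cox8b, Cox8c, Ndufb11b and the second of 2 genes named Atp5o. Because the choice went by symbol, it took in Cox5b-ps, left out Cyc1, Ndufab1 and Atpif1, and placed Ndufa4, which is known as a subunit of complex IV, with complex I.

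The cells were bone-marrow-derived macrophages of C57BL/6J mice, either wild type or TLR4-knockout. TLR4 is the cell-surface receptor for lipopolysaccharide. Marrow cells were grown in medium with L929 supernatant, a source of macrophage growth factor, and used on day 7. They then stood for 24 h in serum-free IMDM with water (the control), with GM (GlcNAc-MurNAc, the disaccharide of the peptidoglycan backbone) or with MDP, spelled MurNAc-D-Ala-L-Gln in the labels. This gave 6 groups of 3 libraries. Doses, the kind of knockout allele and the ages of the mice are not given in the sources used here. The labels number 3 biological replicates per group, and whether these were separate mice is not stated there, so p-values measure only the spread between these samples.

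Complexes I to IV pass electrons from NADH and succinate to oxygen, and complexes I, III and IV pump protons while doing so. ATP synthase uses the returning protons to make ATP. Complex II is encoded by nuclear genes alone, whereas the other complexes join nuclear subunits to a few made from the mitochondrial chromosome. Complex II is also an enzyme of the citric acid cycle, and macrophages are known to shift between respiration and glycolysis when they meet bacterial products.

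The nuclear subunit genes lie on many chromosomes, and NRF1, ETS-family factors (among them GABP) and YY1 are known to act at promoters of such genes. RefSeq promoter windows of build GRCm38.p6, from 250 bases before to 50 bases after the gene's start, were matched by symbol to 69 of the 88 nuclear genes. On either strand, the 10-letter NRF1 motif, whose copies are marked in the Sdha window, occurred in 24.6% of these genes against 5.19% of all 27025 genes with windows. The ETS motif CCGGAAG occurred in 24.6% against 9.93%, and the YY1 motif AAGATGGCG in 10.1% against 1.64%. The other motifs searched were near the background: GGGGCGGGG (SP1) 15.9% against 12.9%, CCAAT 43.5% against 41.1% and TATAAA 11.6% against 15.7%. A match is only a match of letters, and no binding was measured. The 4 windows below were chosen after the values were seen. Sdha and Sdhb are shown because these subunits of 1 enzyme differed between genotypes in opposite directions under MDP, Uqcr11 because its MDP response differed between genotypes, and Atp5j because it holds both an ETS and a YY1 match. Capitals mark NRF1, ETS and YY1 matches on either strand.
Sdha, chr13:74350191-74350490, minus strand, 3 NRF1 matches: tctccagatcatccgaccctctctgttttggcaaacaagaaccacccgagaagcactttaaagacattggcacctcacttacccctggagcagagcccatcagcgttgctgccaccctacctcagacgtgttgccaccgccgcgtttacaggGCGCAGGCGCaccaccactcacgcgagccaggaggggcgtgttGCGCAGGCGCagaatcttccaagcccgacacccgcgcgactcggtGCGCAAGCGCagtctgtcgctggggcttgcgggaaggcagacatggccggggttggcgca
Sdhb, chr4:140961021-140961320, plus strand, 1 ETS match: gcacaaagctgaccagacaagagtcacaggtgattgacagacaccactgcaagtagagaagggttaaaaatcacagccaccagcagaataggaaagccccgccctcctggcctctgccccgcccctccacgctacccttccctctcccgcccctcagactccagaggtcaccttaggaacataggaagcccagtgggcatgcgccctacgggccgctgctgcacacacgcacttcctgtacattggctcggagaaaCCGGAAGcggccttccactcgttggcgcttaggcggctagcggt
Uqcr11, chr10:80406772-80407071, minus strand, 1 ETS match: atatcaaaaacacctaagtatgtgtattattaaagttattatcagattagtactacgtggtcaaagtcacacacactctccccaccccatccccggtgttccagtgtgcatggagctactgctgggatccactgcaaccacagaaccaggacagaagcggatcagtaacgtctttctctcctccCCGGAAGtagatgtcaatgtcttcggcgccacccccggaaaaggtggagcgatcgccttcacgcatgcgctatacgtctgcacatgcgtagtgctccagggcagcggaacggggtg
Atp5j, chr16:84834927-84835226, minus strand, 1 YY1 and 1 ETS match: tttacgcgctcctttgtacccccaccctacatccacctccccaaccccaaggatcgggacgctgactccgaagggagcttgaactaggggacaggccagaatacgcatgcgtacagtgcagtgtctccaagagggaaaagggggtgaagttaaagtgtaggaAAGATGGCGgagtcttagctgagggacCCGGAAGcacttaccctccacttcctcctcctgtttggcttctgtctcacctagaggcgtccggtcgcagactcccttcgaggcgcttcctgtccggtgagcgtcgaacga
The Sdha window held 3 copies of the NRF1 motif and no ETS match, and the Sdhb window held an ETS match and no NRF1 match. Whether motifs go with the direction of a difference between genotypes was not tested.

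Libraries held 15532973 to 21128507 counts. Levels are given as CPM, the counts of a gene per 1000000 counts of its library after TMM scaling, with factors of 0.877 to 0.997 in wild type and 1.03 to 1.06 in knockout. Scaling by library totals alone therefore shifts every knockout value upwards against wild type. On the log2 scale the shift was 0.14 in water, 0.13 under GM and 0.11 under MDP. Counts of members called with library totals are given for each comparison between genotypes. The single genes that lose or gain a call with it are mostly not named. Tlr4 stood at 118 to 230 CPM in the 9 wild-type libraries and at 36.5 to 52.9 CPM in the 9 knockout libraries. Replicate 3 of wild-type water stood apart: its chi-square per gene was 128 and 105 against replicates 1 and 2, which differed from each other by 3.99. The wild-type GM replicates were also far apart, at 26.4 to 81.3, and wild-type MDP replicates differed by 5.35 to 16.7. Knockout replicates differed by 3.18 to 5.19. Macrophage markers such as Lyz2, Adgre1, Csf1r and Cd68 were high in every library. Summed stromal markers were lower in knockout libraries (49.8 to 125 CPM) than in wild-type libraries (146 to 575 CPM). Without Fn1, which carries much of that sum, they ran from 9.72 to 23.5 CPM in knockout and from 22.1 to 410 CPM in wild type. Summed cell-cycle genes ran from 329 to 952 CPM in wild type and from 878 to 1433 CPM in knockout. The part of these differences in the results below was not tested. In bulk samples, fewer cells of a type and less RNA per cell cannot be told apart.

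Per length, 7 of the 13 mitochondrial-encoded genes had higher levels than any nuclear member, and the other 6 lay among the nuclear ones. Over the 18 libraries the mean level of mt-Co1, the catalytic core of complex IV, was 12090 CPM per kb, that of mt-Cytb, the cytochrome b of complex III, 3430, and that of mt-Nd1 of complex I 2754. The highest nuclear gene was Cox8a of complex IV at 307 CPM per kb, ahead of Atp5b at 193 and Atp5a1 at 190, the beta and alpha subunits of the ATP synthase head. The median nuclear gene of complex I stood at 27.4 CPM per kb, against 56.2 for complex II, 71.6 for complex III, 64.8 for complex IV and 41.4 for ATP synthase. The median mitochondrial-encoded gene stood at 1252 CPM per kb in complex I, 55.6 in complex IV and 14.4 in ATP synthase. The 6 low genes, from mt-Co2 at 55.6 to mt-Atp8 at 2.23 CPM per kb, include 5 whose counts are uncertain because of nuclear copies. The mitochondrial chromosome took 2.96% to 3.79% of counts and the nuclear members together 0.645% to 0.775%. The libraries were enriched for poly(A) RNA, per the labels' protocol, so these levels can also depend on the tails of the mitochondrial messengers.

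The median level of the mitochondrial-encoded complex I genes was highest in wild-type water and lowest in knockout MDP. On the log2 scale and relative to the mean of the 18 libraries, the wild-type median was 0.35 ± 0.03 with water, 0.10 ± 0.03 with GM and 0.02 ± 0.02 with MDP (SD, n = 3 each). The knockout median was -0.04 ± 0.02 with water, -0.09 ± 0.07 with GM and -0.27 ± 0.07 with MDP. The nuclear complex I genes did not follow this order: wild-type cells had a median of 0.05 ± 0.04 with water and -0.17 ± 0.06 with MDP, and knockout cells one of 0.06 ± 0.05 with MDP. For complex III the nuclear median was -0.16 ± 0.07 in wild-type MDP and 0.07 ± 0.04 in knockout MDP, and for complex IV -0.12 ± 0.06 and 0.02 ± 0.02. Complex II stood at -0.09 ± 0.03 in wild-type MDP and -0.18 ± 0.02 in knockout MDP, but this order turned with library totals, at -0.13 ± 0.02 and -0.10 ± 0.02. ATP synthase stood at -0.10 ± 0.04 and -0.04 ± 0.05. These medians are descriptions and were not tested.

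**Figure D1:**
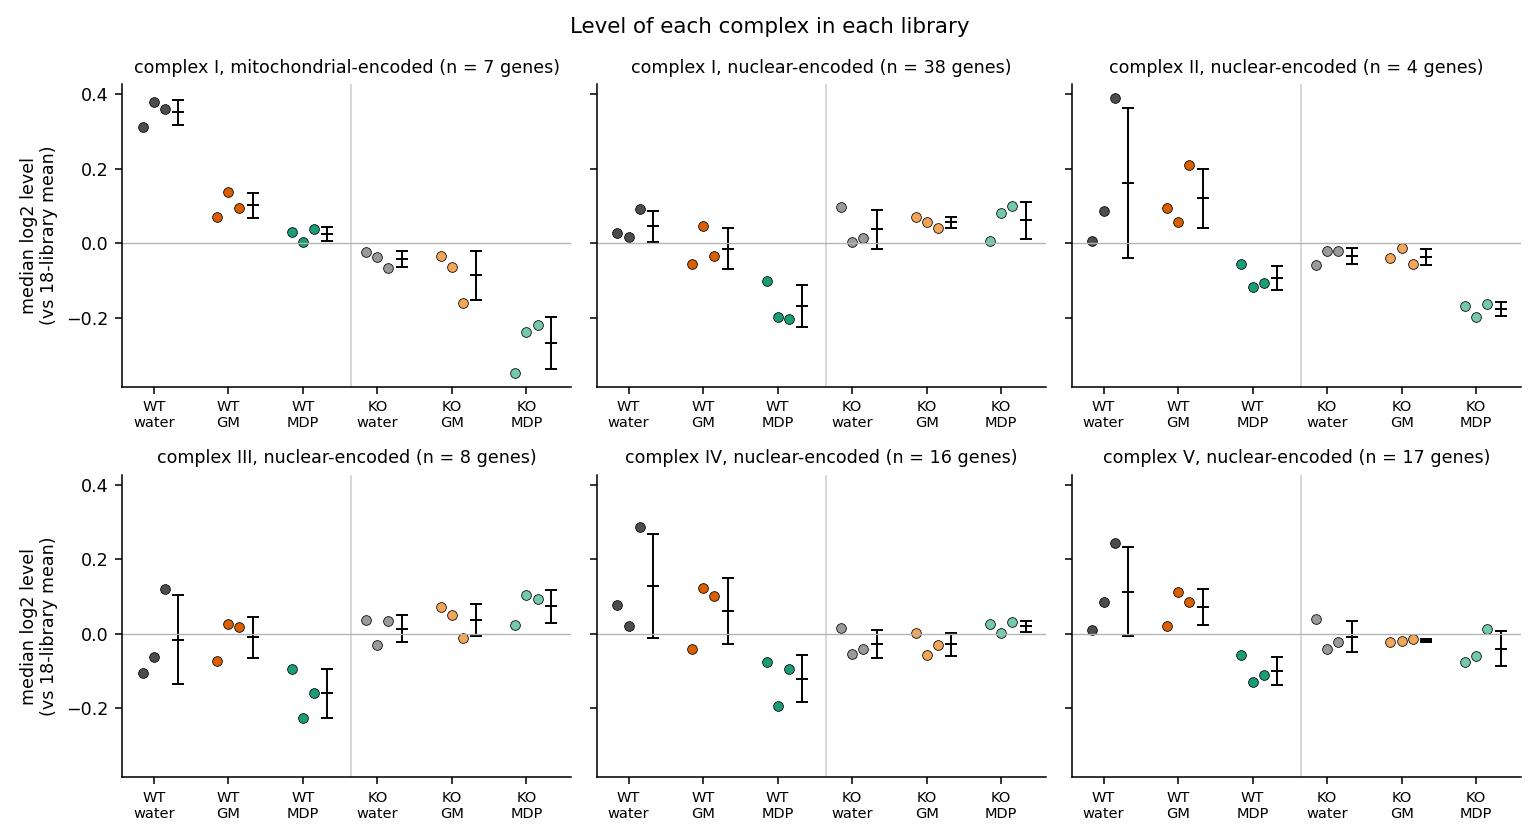
Median log2 level of the tested genes of each complex relative to the mean of the 18 libraries (vertical axis), by group (horizontal axis), for the mitochondrial-encoded complex I genes and the nuclear genes of complexes I to V. Points are libraries and bars are the mean ± SD of 3 libraries; the mitochondrial-encoded median runs from 0.35 in wild-type water to -0.27 in knockout MDP, while the nuclear complex I median is lowest in wild-type MDP at -0.17.

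For 12 of the 96 tested members all 9 knockout libraries lay on the same side of all 9 wild-type libraries, whatever the treatment. Among them 4 were lower in knockout, where 6.52% of all genes tested were, and 8 were higher, where 6.2% were. These 12 were picked by their values and both shares are near those of all genes, so the list is a description. With library totals in place of TMM, 2 members were lower and 17 higher, where 3.87% and 10.8% of all genes were. The lower ones were then mt-Nd2 and mt-Cytb alone, while Sdha and Cox5a overlapped, and all 8 higher ones remained.

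The lower ones included messengers of mitochondrial DNA for complexes I and III. mt-Nd2 (mitochondrial chromosome, GRCm39, 3914 to 4951, plus strand), a membrane subunit of complex I, ran from 1348 to 2124 CPM in wild type with a median of 1661. In knockout it ran from 851 to 1042 CPM with a median of 973, and the ratio of means was 0.577. mt-Cytb (14145 to 15288, plus strand) ran from 3814 to 6379 CPM (median 4657) in wild type and from 2689 to 3446 CPM (median 3312) in knockout. mt-Co1 (5328 to 6872, plus strand), from the same chromosome, overlapped fully: 16750 to 20610 CPM (median 18350) against 17460 to 19940 CPM (median 19340). Set against mt-Co1 within a library, mt-Nd2 had 7.60 to 10.8 counts per 100 mt-Co1 counts in wild type and 4.68 to 5.36 in knockout. For mt-Cytb the same figure was 21.1 to 32.5 against 15.1 to 17.7, and for mt-Nd1 14.2 to 17.4 against 11.8 to 13.3. Relative to mt-Co1, these messengers and mt-Nd5 (15.45 to 20.72 against 12.28 to 14.73) were lower in every knockout library than in any wild-type library. The genotypes overlapped for mt-Nd4 (8.854 to 10.86 against 8.139 to 9.255) and mt-Nd6 (0.5716 to 1.608 against 0.8892 to 1.202). No share over all genes was computed for this ratio, so it is a description.

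In complex II, succinate dehydrogenase, Sdhb was higher in all knockout libraries, and Sdha was lower by a narrow gap that depended on the scaling. Sdha (chr13:74470373-74498399, minus strand, GRCm39), the flavoprotein that oxidizes succinate, ran from 265 to 304 CPM (median 277) in wild type and from 206 to 263 CPM (median 248) in knockout. With library totals its ranges, 250 to 279 and 217 to 276 per 1000000 counts, overlapped, and it passed the test between genotypes under MDP only. Sdhb (chr4:140688514-140706504, plus strand), the iron-sulfur subunit that takes the electrons from it, ran from 85.2 to 103 CPM (median 92.1) in wild type and from 119 to 138 CPM (median 128) in knockout. The membrane anchors Sdhc and Sdhd overlapped between genotypes: Sdhc ran from 101 to 157 CPM in wild type and from 83.6 to 106 CPM in knockout. Sdhd ran from 124 to 254 CPM in wild type and within 143 to 153 CPM in knockout.

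Cox5a (chr9:57428557-57439709, plus strand), a matrix-side subunit of complex IV, ran from 102 to 148 CPM (median 135) in wild type and from 87.4 to 99.5 CPM (median 89.4) in knockout, and it passed the test between genotypes in water, under GM and under MDP. Cox7a2l (chr17:83809347-83824759, minus strand) was on the other side, at 122 to 180 CPM (median 162) in wild type and 192 to 233 CPM (median 214) in knockout. Ndufc2 (chr7:97049210-97057009, plus strand), an accessory subunit of the complex I membrane arm, ran from 28.8 to 33.7 CPM in wild type and from 42.6 to 48.3 CPM in knockout, with a ratio of means of 1.43. The other 5 were all higher in knockout and are named after their values were seen: Uqcrq (ratio 1.23), Atp5g2 (1.19), Ndufa6 (1.25), Ndufs4 (1.26) and Ndufb3 (1.26). Of these, Atp5g2 shares 38.4% of its 50-base words with other genes' transcripts, so its counts are less certain.

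**Figure D2:**
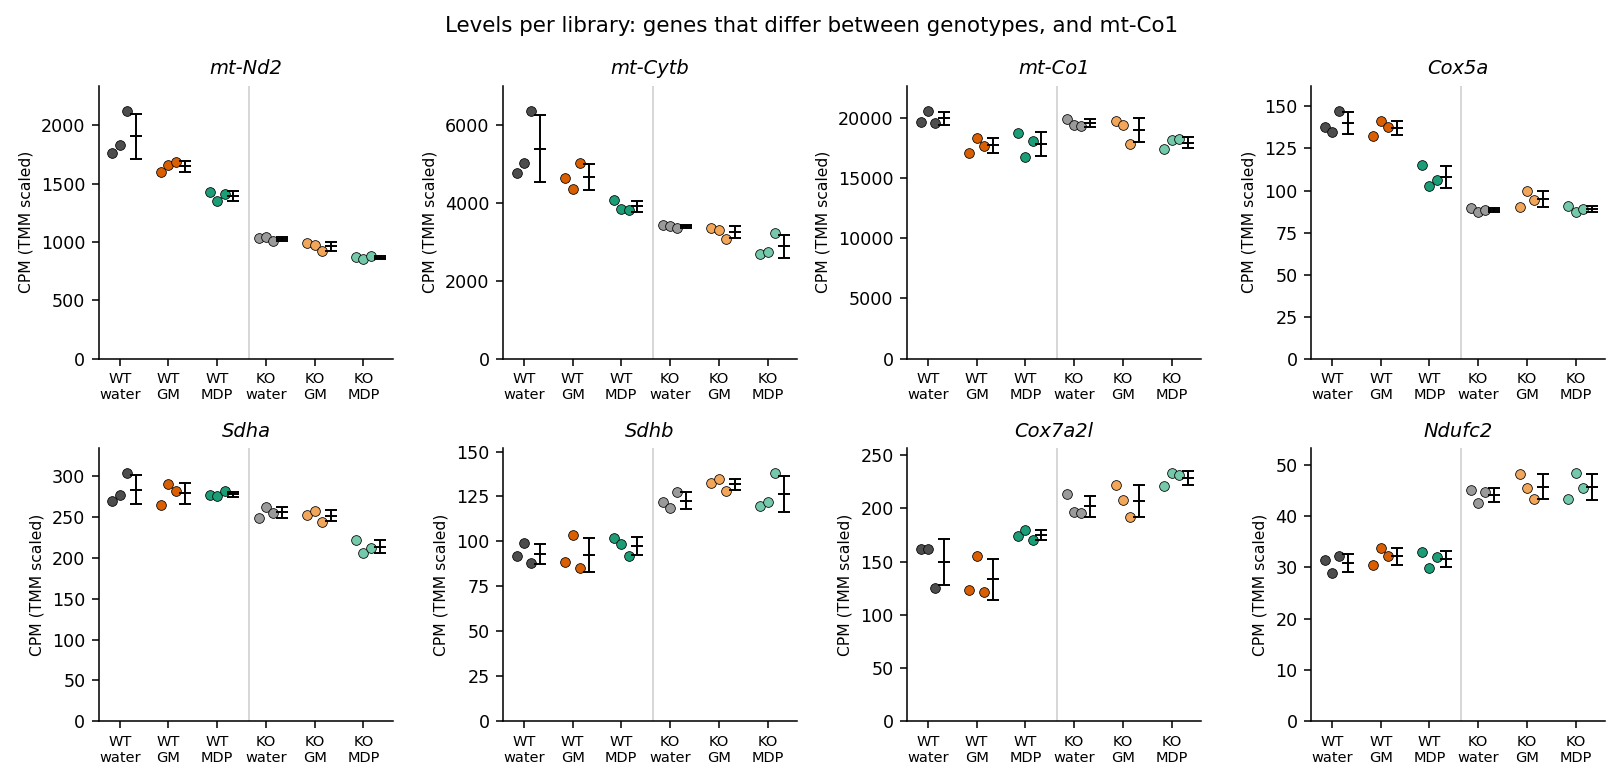
Level in CPM (vertical axis, from 0) of mt-Nd2, mt-Cytb, mt-Co1, Cox5a, Sdha, Sdhb, Cox7a2l and Ndufc2 by group (horizontal axis). Points are libraries and bars are the mean ± SD of 3 libraries; every knockout library of mt-Nd2 lies at or below 1042 CPM and every wild-type library at or above 1348 CPM, whereas mt-Co1 overlaps between genotypes.

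In water, which compares the genotypes with no muropeptide added, 3 members were higher and 5 lower in knockout (edgeR's quasi-likelihood test, Benjamini-Hochberg adjusted p under 0.05). Over all genes tested 6.32% were higher and 8.3% lower. In comparisons between genotypes, rose and fell mean higher and lower in knockout than in wild type. mt-Nd2 fell by 0.89 on the log2 scale (SE 0.105, adjusted p = 0.005), from 1760, 1826 and 2124 CPM in wild type to 1034, 1042 and 1008 CPM. mt-Cytb fell by 0.66 (SE 0.130, adjusted p = 0.022), from 4787, 5037 and 6379 CPM to 3446, 3410 and 3364 CPM. mt-Nd1 fell by 0.38 (adjusted p = 0.029), Cox5a by 0.66 (adjusted p = 0.0054) and Atp5g1, a form of the membrane ring subunit of ATP synthase, by 0.50 (adjusted p = 0.025). Sdhb rose by 0.40 (adjusted p = 0.029) and Ndufc2 by 0.52 (adjusted p = 0.016). Over 15 other settings mt-Nd1 and Atp5g1 passed in 7 each, Sdhb in 9 and mt-Cytb and Ndufc2 in 10 each. Cox5a passed in 13 of them and mt-Nd2 in 14. With library totals 7 members were higher and 3 lower, against 8.89% and 5.94% of all genes. The third riser, mt-Co2, is uncertain for a reason given with the nuclear copies. Sdha (-0.15, adjusted p = 0.28), Sdhc (-0.46, adjusted p = 0.055) and Cox7a2l (0.43, adjusted p = 0.065) did not pass. Without wild-type water replicate 3, 20 members were higher and 26 lower, against 22.1% and 24.7% of all genes, and mt-Nd2 was at -0.80. Leaving out any other library of the comparison lowered the count of members called to between 1 and 5. Stromal markers were lower in knockout here for 11 of 13 tested and cell-cycle genes higher for 9 of 20, and their part in these differences was not tested.

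The same contrast under GM and under MDP was added after the data were seen. Under GM, 12 members rose and 11 fell in knockout, against 12.7% and 18% of all genes. mt-Nd2 was lower by 0.78 (SE 0.0882, adjusted p = 0.0014), at 992, 973 and 918 CPM against 1596, 1661 and 1682 CPM. mt-Cytb (-0.53, adjusted p = 0.011), Cox5a (-0.53, adjusted p = 0.0029) and mt-Nd1 (-0.33, adjusted p = 0.046) also fell. Over 15 other settings mt-Nd1 passed in 7, mt-Cytb in 12 and Cox5a in 15. Cox7a2l rose by 0.64 (adjusted p = 0.008), Ndufs8, an iron-sulfur subunit of complex I, by 0.53 (adjusted p = 0.0066), Sdhb by 0.51 (adjusted p = 0.0072), Ndufc2 by 0.51 (adjusted p = 0.0053), Atp5g2 by 0.43 (adjusted p = 0.011) and Ndufb11 by 0.40 (adjusted p = 0.038). Ndufb6 fell by 0.42 (adjusted p = 0.013). Cox4i2 and Ndufa4l2, called lower, were near 0 counts and get no fold. Nuclear complex I members made up 8 of the risers and 3 of those that fell. The count depended on single libraries: 14 members were called without wild-type GM replicate 1, and 7, 7 and 8 without knockout GM replicates 1, 2 and 3. With library totals 20 rose and 6 fell, against 18.5% and 12.8% of all genes. Cell type markers differed here too: stromal markers without Fn1 summed to 94.1 to 144 CPM in wild-type GM and 9.72 to 13.5 CPM in knockout GM. Their part was not tested.

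Under MDP 42 members were higher and 12 lower in knockout, against 20.5% and 23.5% of all genes tested. The median member stood 0.19 higher on the log2 scale, against -0.02 for all genes. Of the 83 nuclear members 41 rose and 7 fell, with a median of 0.22 and 62 above 0. Of the 13 mitochondrial-encoded members 1 rose and 5 fell. Complex I split by genome: 21 of its 38 nuclear genes rose and 1 fell (median 0.28), whereas 4 of its 7 mitochondrial-encoded genes fell and none rose (median -0.38). Nuclear genes of complex III rose in 6 of 8 cases and none fell. Complex IV had 6 risers and 2 that fell of 16, ATP synthase 6 and 2 of 17, and complex II 2 and 2 of 4. Counting only the 69 members that share at most 10% of their 50-base words with other genes' transcripts, 34 rose and 10 fell. With library totals 57 rose and 6 fell, against 28.6% and 17.1% of all genes.

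Among nuclear members under MDP, knockout exceeded wild type most for Ndufb2, by 0.66 (adjusted p = 0.039, at levels under 5 CPM). Ndufa4 was higher in knockout by 0.60 (SE 0.0743, adjusted p = 8.3e-08) and Ndufc2 by 0.53 (adjusted p = 1.6e-06). Cox7a2, a subunit of complex IV with a muscle form Cox7a1, was higher by 0.52 (adjusted p = 1.3e-07) and Cox7b by 0.51 (adjusted p = 1.1e-07). These are differences between genotypes and need not be rises with MDP. Mean Cox7a2 did rise in knockout, from 80.6 CPM per kb in water to 97.8 in MDP, and went from 89.3 to 68.3 in wild type. Its call, and those of Uqcrq and Cox7a2l, against water in knockout are given below. Mean Ndufa4 went from 46.2 CPM per kb in water to 31.4 in MDP in wild type, and from 48.2 to 47.8 in knockout. Mean Ndufb2 went from 0.743 to 0.379 in wild type and from 0.727 to 0.597 in knockout. Cox7a2 stood at 88.5, 91.8 and 96.6 CPM in knockout and at 69.5, 64.5 and 59.4 CPM in wild type, with no overlap. Uqcrq, a small subunit of complex III named for its separation between genotypes, was higher in knockout by 0.48 (adjusted p = 1.2e-06). It stood at 56.3, 49.0 and 53.4 CPM in wild type and at 68.4, 76.9 and 75.7 CPM in knockout. Cox7a2l was higher in knockout by 0.39 (adjusted p = 5.3e-07).

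Under MDP mt-Nd2 was lower in knockout than in wild type by 0.69 (SE 0.0528, adjusted p = 5.7e-12). It stood at 1425, 1348 and 1408 CPM in wild type and at 867, 851 and 877 CPM in knockout. mt-Nd6, the complex I subunit read from the other strand, fell by 0.58 (adjusted p = 0.00014), mt-Cytb by 0.44 (adjusted p = 1.8e-06), mt-Nd5 by 0.38 (adjusted p = 1.7e-06) and mt-Nd1 by 0.21 (adjusted p = 0.0056). mt-Nd4 was at -0.09 (adjusted p = 0.24) and mt-Co1 at 0.01 with a 95% interval of -0.11 to 0.12. Within complex II, Sdha fell by 0.38 (adjusted p = 6.6e-07) and Sdhc by 0.21 (adjusted p = 0.004), whereas Sdhb rose by 0.38 (adjusted p = 1.1e-05) and Sdhd by 0.15 (adjusted p = 0.033). The Sdhc call was lost with library totals (-0.10, adjusted p = 0.17) and with all 18 libraries in 1 fit (-0.21, adjusted p = 0.1). Sdha stood at 277, 275 and 281 CPM in wild type and at 222, 206 and 213 CPM in knockout. Cox5a fell by 0.28 (adjusted p = 0.00028), and Atp5o and Atp5b of the ATP synthase by 0.22 (adjusted p = 0.026) and 0.15 (adjusted p = 0.021), calls that passed in 9 of 15 other settings each. Beside these results, 9 of 13 stromal markers were lower and 1 higher, 8 of 10 neutrophil genes higher and 1 lower, and 10 of 20 cell-cycle genes higher and 5 lower in knockout. Their part was not tested.

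**Figure D3:**
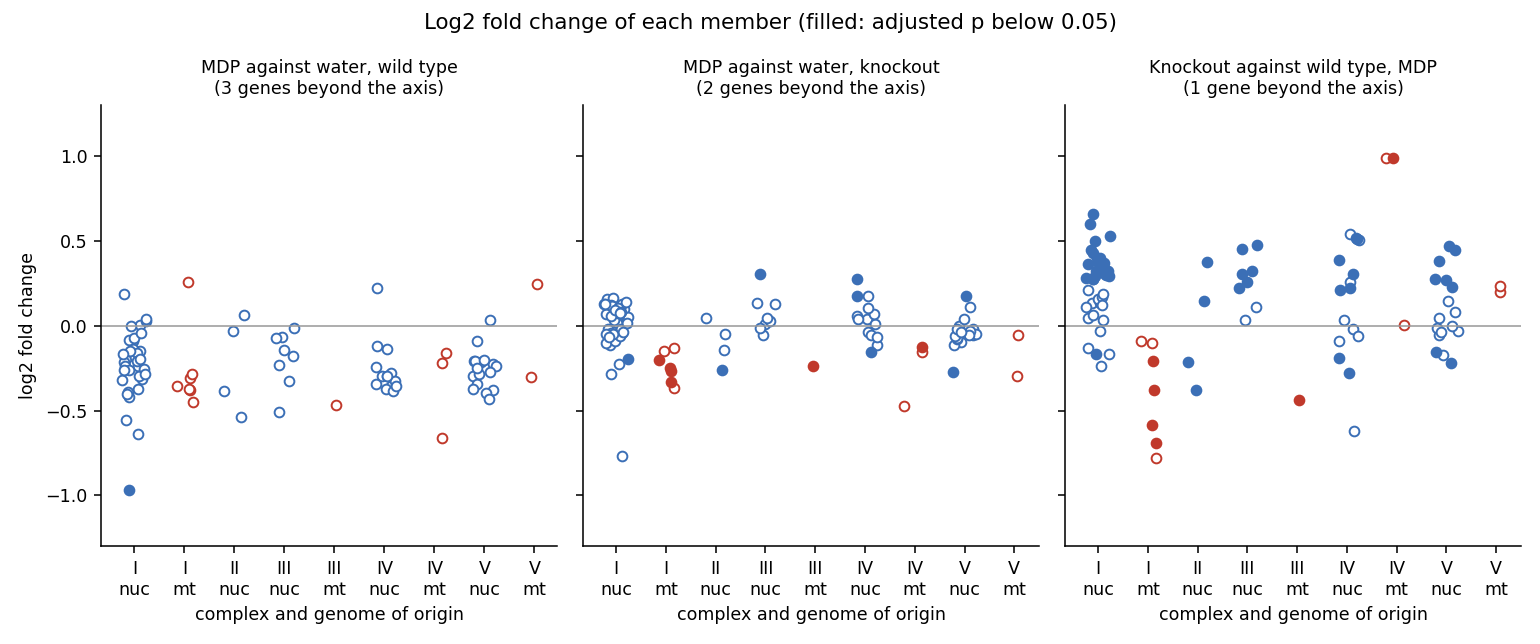
Log2 fold change of each tested member (vertical axis) by complex and genome of origin (horizontal axis) for MDP against water in wild type, MDP against water in knockout and knockout against wild type under MDP. Blue points are nuclear and red points mitochondrial-encoded genes, filled where the adjusted p is under 0.05, and 3, 2 and 1 genes lie beyond the axes; in the last panel 41 nuclear genes are called higher, while the called mitochondrial-encoded complex I genes lie below 0.

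In knockout macrophages the mitochondrial-encoded members that passed the test all fell with MDP, while nuclear members moved in both directions. Against water, 5 members rose and 10 fell, where 9.16% of all genes rose and 10% fell. Of the 13 mitochondrial-encoded members 6 fell, none rose and none had a fold above 0 (median -0.24). Of the 83 nuclear ones 5 rose and 4 fell (median 0.01). mt-Nd6 fell by 0.33 (SE 0.0492, adjusted p = 1.2e-06), from 218, 214 and 197 CPM to 166, 172 and 162 CPM. mt-Nd5 fell by 0.27 (adjusted p = 9.6e-06), mt-Nd2 by 0.25 (adjusted p = 2.2e-05), mt-Cytb by 0.24 (adjusted p = 0.0016), mt-Nd1 by 0.20 (adjusted p = 0.0012) and mt-Co1 by 0.12 (adjusted p = 0.034). Over 15 other settings the mt-Co1 call passed in 7, that of mt-Nd6 in 13 and the others in 14 each. The water and MDP libraries did not overlap for any of these 6 genes. That adds little to the calls, because the 6 were picked as called and the share over all genes was not computed here.

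Among nuclear members in the same comparison, Sdha fell by 0.26 (SE 0.0470, adjusted p = 4.2e-05), from 248, 263 and 255 CPM to 222, 206 and 213 CPM. Atp5o, in the stalk of the ATP synthase, fell by 0.27 (adjusted p = 0.0045), Ndufs3 by 0.20 (adjusted p = 0.033) and Cox6a1 by 0.16 (adjusted p = 0.037). Uqcrq rose by 0.31 (adjusted p = 0.00012), Cox7a2 by 0.28 (adjusted p = 0.00013), Cox7a2l by 0.18 (adjusted p = 0.0054) and Atp5md, a small membrane subunit of ATP synthase, by 0.17 (adjusted p = 0.042). Over 15 other settings Ndufs3 and Cox6a1 passed in 7 each and Atp5md in 8. Sdha, Atp5o, Uqcrq, Cox7a2 and Cox7a2l passed in 13 to 15. Cox6a2, the muscle form of a complex IV subunit, was called higher (adjusted p = 0.038) but lay under 1 CPM in every one of these libraries and gets no fold. Sdhb (0.04, adjusted p = 0.66) and Cox5a (0.01, adjusted p = 0.94), which separated the genotypes, did not pass here. Cell-cycle genes fell in 19 of 20 cases in this comparison, and their part was not tested. With all 18 libraries in 1 fit, 2 members were called. With library totals 7 rose and 8 fell, against 9.93% and 9.23% of all genes.

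In wild-type macrophages the MDP values leaned downwards over both genomes, but 1 member passed the test. Ndufb2, an accessory complex I subunit of low level, fell (-0.97, SE 0.216, adjusted p = 0.042), from 4.54, 4.02 and 3.98 CPM to 1.92, 2.29 and 2.20 CPM. That is 0 members higher and 1 lower, where 4.61% of all genes rose and 3.72% fell. The median was -0.23 for nuclear and -0.31 for mitochondrial-encoded members, against -0.04 for all genes, and 11 of 96 had a fold above 0. The MDP libraries lay below all water libraries for 52 members and above them for 3, where 18.4% and 18.8% of all genes did so. mt-Nd2 (-0.45, adjusted p = 0.056), mt-Nd1 (-0.38, adjusted p = 0.059) and Cox5a (-0.37, adjusted p = 0.059) missed the threshold. Sdha (-0.03, adjusted p = 0.87) and Sdhb (0.07, adjusted p = 0.70) had values near 0. Without wild-type water replicate 3, 43 members fell and 0 rose, against 18.2% and 17.2% of all genes, and leaving out any other library gave 0. In this comparison 9 of 13 stromal markers fell as well. Fn1 stood at 53.8 to 164 CPM in water and 138 to 160 CPM in MDP, and the sum of the others at 92.4 to 410 CPM in water and 22.1 to 30.7 CPM in MDP. Their part was not tested.

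Whether the MDP response differed between genotypes was tested in 1 fit of 12 libraries. The response of 3 members was lower in wild type than in knockout and that of 0 higher, where 3.34% and 4.63% of all genes were. Uqcr11, a small subunit of complex III, differed by -0.55 (SE 0.141, adjusted p = 0.035). In wild type it went from 50.3, 50.7 and 61.0 CPM in water to 42.8, 35.8 and 35.4 CPM in MDP, and in knockout from 46.3, 42.5 and 47.6 CPM to 48.1, 46.5 and 46.2 CPM. Ndufa13, an accessory complex I subunit also known as GRIM-19, differed by -0.41 (SE 0.110, adjusted p = 0.043), with 78.2, 80.4 and 87.9 CPM in wild-type water and 66.6, 64.4 and 67.5 CPM in wild-type MDP. Its knockout values were 73.0, 76.9 and 78.4 CPM in water and 76.7, 78.0 and 89.6 CPM in MDP. Cox5a differed by -0.38 (SE 0.0937, adjusted p = 0.029). It stood at 138, 135 and 148 CPM in wild-type water against 115, 102 and 106 CPM in wild-type MDP, and within 87.4 to 90.6 CPM in both knockout groups. Without wild-type water replicate 3, 20 members had a lower and 1 a higher response in wild type, against 12.1% and 14.1% of all genes, and without its replicate 1, 8 were lower. Without replicate 2 or replicate 3 of wild-type MDP, or without any of the knockout libraries, no member passed. The mt-Nd2 response did not pass (-0.20, adjusted p = 0.28).

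With GM, the disaccharide, few of these genes passed the test against water. In wild type 0 members rose and 0 fell, where 0.608% of all genes rose and 0% fell. The smallest adjusted p was that of Ndufv3 (-0.31, adjusted p = 0.53), and 975 of all 15450 genes had an unadjusted p under 0.05. The biological coefficient of variation between replicates was 31.8% in this comparison, against 5.92% for GM against water in knockout. With that spread, 0 calls in wild type do not show that GM left these genes unchanged. In knockout 0 rose and 2 fell, against 3.61% and 4.23% of all genes. They were mt-Nd1 (-0.18, SE 0.0414, adjusted p = 0.0028), from 2562, 2583 and 2551 CPM to 2332, 2338 and 2106 CPM, and the uncertain mt-Co2. For the GM response between genotypes, 0 members were higher and 0 lower, where 0.926% and 0.0129% of all genes were, with 1210 genes at an unadjusted p under 0.05. The smallest member value was that of mt-Co2 (0.68, adjusted p = 0.11).

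Between the muropeptides, GM against MDP, doses are not given, so the comparison is of the libraries as labelled. GM carries the GlcNAc sugar and no peptide, and MDP carries a dipeptide on MurNAc alone. In wild type 6 members were higher under GM and 0 lower, against 5.59% and 4.41% of all genes: Ndufb6 (0.65, adjusted p = 0.011), Ndufa4 (0.59, adjusted p = 0.029), Sdhd (0.48, adjusted p = 0.038), Cox5a (0.34, adjusted p = 0.042), Atp5md (0.33, adjusted p = 0.038) and Atp5d (0.32, adjusted p = 0.039). mt-Nd2 (0.24, 95% interval 0.02 to 0.46, adjusted p = 0.14) did not pass. Without wild-type GM replicate 2, 16 members were called, and without wild-type GM replicate 1 or any wild-type MDP library, 0. In knockout 7 were higher under GM and 4 lower, against 8.08% and 8.31% of all genes. mt-Nd6 (0.33, adjusted p = 5.4e-07), mt-Nd5 (0.26, adjusted p = 3.7e-05) and Sdha (0.23, adjusted p = 0.00015) led the first set. Uqcrq (-0.24, adjusted p = 0.0016), Cox7a2 (-0.18, adjusted p = 0.018), Cox7a2l (-0.14, adjusted p = 0.037) and Uqcrh (-0.14, adjusted p = 0.048) made up the other. The count fell to 7 without knockout GM replicate 1 or 3 or knockout MDP replicate 2, to 5 without knockout GM replicate 2 and to 0 with all 18 libraries in 1 fit. Water, GM and MDP comparisons share libraries, so these values are not independent of the ones above.

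Several subunits of complex IV exist in alternative forms, and the common forms were the abundant ones here. Cox4i1 stood at 252 to 339 CPM, while Cox4i2, the form known from lung and low oxygen, stood at 0 to 0.908 CPM. Cox6a2, Cox7a1 and Cox6b2 averaged 0.692, 1.76 and 0.332 CPM per kb, and Cox8b was at 0 counts. Ndufa4l2 ran from 0 to 2.17 CPM and was highest in wild-type water replicates 1 and 2. Ndufa4 (chr6:11900291-11907496, minus strand) itself stood at 53.7, 60.3 and 77.3 CPM in wild-type water, 69.5, 54.0 and 72.6 CPM in wild-type GM and 45.8, 41.9 and 42.4 CPM in wild-type MDP. All 9 knockout libraries lay between 61.7 and 73.7 CPM.

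AA467197, the gene of a protein related to NDUFA4 that is known to be induced in inflammation, lies outside the rule. It stood at 19.5, 16.7 and 27.9 CPM in wild-type water, 80.6, 80.4 and 99.1 CPM in wild-type GM and 68.2, 60.5 and 60.0 CPM in wild-type MDP. In wild type it rose by 2.02 with GM (SE 0.218, adjusted p = 0.022) and by 1.56 with MDP (SE 0.2, adjusted p = 0.0079). In knockout it stood at 52.2, 58.6 and 58.7 CPM in water, 62.2, 59.9 and 61.6 CPM in GM and 101, 137 and 113 CPM in MDP. There it rose by 1.05 with MDP (SE 0.121, adjusted p = 0.001), while the GM value of 0.12 did not pass (adjusted p = 0.26). The GM response differed between genotypes by 1.90 (SE 0.228, adjusted p = 0.0019), and the difference in the MDP response did not pass (0.51, adjusted p = 0.21). Already in water it was higher in knockout by 1.40 (adjusted p = 0.0087).

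**Figure D4:**
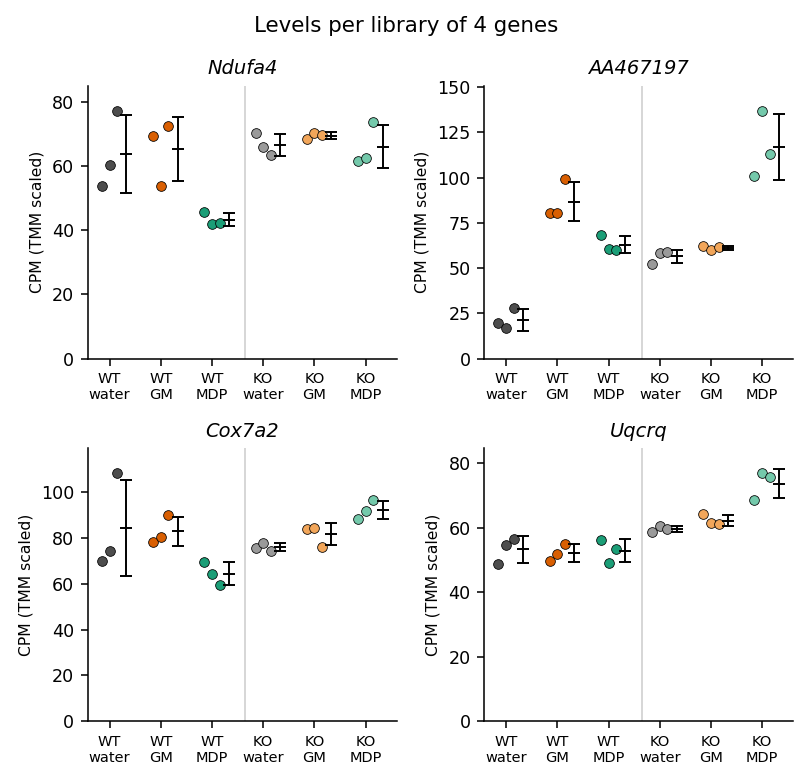
Level in CPM (vertical axis, from 0) of Ndufa4, AA467197, Cox7a2 and Uqcrq by group (horizontal axis). Points are libraries and bars are the mean ± SD of 3 libraries; AA467197 is lowest in wild-type water (16.7 to 27.9 CPM) and Ndufa4 is lowest in wild-type MDP (41.9 to 45.8 CPM).

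Some mitochondrial-encoded values cannot be trusted as levels of the mitochondrial messenger. Of the 50-base words of mt-Co2, mt-Co3, mt-Atp6, mt-Nd4l and mt-Nd3, 98.0% to 100% also occur in transcripts of other genes, among them nuclear copies such as Gm28661 and Gm10925. These 5 genes gathered only 1246 to 12699 counts over the 18 libraries, against 6233360 for mt-Co1. Their calls are therefore uncertain: mt-Co2 was called higher in knockout water (0.93, adjusted p = 0.009) and lower with GM in knockout (-0.93, adjusted p = 3e-06), and mt-Co3 higher in knockout under MDP (0.99, adjusted p = 0.00072). mt-Atp6 stood at 62.3 CPM in knockout GM replicate 1 and at 18.4 and 14.2 CPM in replicates 2 and 3. Words of mt-Co1 (51.1%) and mt-Nd4 (62.2%) are shared as well, though both are well counted. mt-Nd6 overlaps mt-Nd5 on the other strand, and the strand setting of the counting is not given in the sources used here. In wild type mt-Nd6 ran from 97.8 to 291 CPM, with replicate 3 of water at 114 against 257 and 254 CPM for replicates 1 and 2.

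Other genes of mitochondrial energy metabolism came from lists that were chosen with earlier results of these data known. In knockout against wild type under MDP, glycolysis rose in 14 of 15 genes and none fell (median 0.42), led by Tpi1 (1.07) and Pfkl (1.03). Mitochondrial ribosomal proteins rose in 17 of 77 and fell in 1, led by Mrpl33 (0.78) and Mrpl52 (0.77), against the same 20.5% and 23.5% of all genes. The ATP, phosphate and pore carriers fell in 5 of 7, among them Slc25a3 (-0.46) and Vdac2 (-0.45). Import and structure genes fell in 4 of 17 and rose in 1, with Hspd1 at -0.61. Among regulators of respiration genes 3 rose and 2 fell of 9, with Myc at -1.39. Of the genes for copying and transcribing mitochondrial DNA 3 of 13 rose and 2 fell, with Polg, the polymerase, at 0.84 and Mgme1, a nuclease, at -0.64. Of the mitochondrial RNA processing genes 3 of 16 rose and 1 fell, with Mtpap, the mitochondrial poly(A) polymerase, at -0.37. Few assembly factors passed: 1 rose and 1 fell of 14 for complex I, 1 and 1 of 10 for complexes II and III, 3 and 2 of 18 for complex IV (Cox16 at 0.73) and 1 and 0 of 4 for ATP synthase.

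With MDP in knockout cells, where 9.16% of all genes rose and 10% fell, glycolysis rose in 9 of 15 genes, with Pfkl at 0.61 and Ldha at 0.46. The carriers fell in 4 of 7, with Slc25a5 at -0.27. None of the assembly factors passed, and Myc fell by 0.78. With MDP in wild type, where 4.61% of all genes rose and 3.72% fell, the lists gave 1 gene each for regulators (Ppargc1b, a coactivator of respiration genes, at -1.11), import (Hspd1 at -0.64) and glycolysis (Pfkp at -0.83), all lower. In knockout against wild type under GM, 9 ribosomal proteins were higher and 8 lower of 77, shares at or below the 12.7% and 18% of all genes. Import genes fell in 7 of 17, and Cox17, a copper carrier for complex IV, fell by 1.41. In water, Coq8a of ubiquinone synthesis rose by 2.17 in knockout.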

How the data were processed

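RNA of 18 macrophage libraries was measured by poly(A)-enriched, directional RNA sequencing, per the labels' protocol. The authors deposited raw counts per gene (HISAT2 2.0.5, featureCounts 1.5.0-p3, GRCm39, per the submitters' processing notes) and FPKM values, which were deposited beside the counts and served only to check the columns. Groups came from the labels. Genes kept by filterByExpr (minimum count 10) numbered 15450. Each comparison was fitted with edgeR 4.0.16 (robust quasi-likelihood test, TMM factors over 18 libraries, Benjamini-Hochberg adjustment over all genes tested) on its own 6 libraries, or 12 for differences between responses, because spreads differed between groups. The call threshold was an adjusted p of 0.05. Fits of some of the comparisons were also run on simulated counts, with the same spread for all genes of a group. Those counts held no outlying replicate, so they cannot show how the calls depend on wild-type water replicate 3. The members and lists were chosen with earlier results of these data known. Named by rule were the called members with the largest changes (up to 6 in each direction), all mitochondrial-encoded members, complex II, alternative forms of complex IV and ATP synthase subunits, and up to 2 called genes per other list; genes outside it were chosen after values were seen. Knockout against wild type under GM and under MDP, counts of members with few shared words, levels by library totals and stromal sums without Fn1 were added after seeing the data. Alternatives were DESeq2 1.42.0, limma-voom (limma 3.58.1), other scalings, no filter, all libraries in 1 fit, a replicate block and leaving out each library.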

Additional observations from a re-analysis of the deposited data

Results flagged for a closer look

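The response to MDP of 3 members differed between genotypes by a test of the difference itself (edgeR's quasi-likelihood test over 12 libraries, Benjamini-Hochberg adjustment), with wild type lower than knockout in each. That is 3 of 96 members, where 3.34% of all genes had a lower response in wild type, so the count is near the background and the genes are given as single results. Over 21 other settings the wild-type minus knockout difference of Uqcr11 was -0.55 as reported and ran from -0.65 to -0.46, passing in 11. That of Ndufa13 was -0.41 and ran from -0.45 to -0.34, passing in 9. That of Cox5a was -0.38 and ran from -0.43 to -0.34, passing in 12.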

How the results depend on the processing

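Counts of members called for knockout against wild type under MDP stayed between 37 and 63 over 15 other settings, against 54 as reported, with 32 to 57 higher (42) and 5 to 14 lower (12). The lower count fell to 5 with all 18 libraries in 1 fit, 6 with library totals and 8 without wild-type MDP replicate 1. Fitting all 18 libraries together gave 1 for GM against water in wild type (reported 0), 42 for MDP against water in wild type (1), 21 for GM against MDP in wild type (6), 0 for GM against water in knockout (2), 2 for MDP against water in knockout (15), 0 for GM against MDP in knockout (11), 33 for knockout against wild type in water (8) and 10 for the MDP response (3). DESeq2 gave 14 for MDP against water in wild type, 12 for GM against MDP in wild type, 6 for GM against MDP in knockout, 15 for the genotypes in water, 1 for the GM response and 12 for the MDP response. limma-voom gave 10, 18 and 14 for MDP against water in wild type, GM against MDP in wild type and the genotypes in water. For MDP against water in wild type, RLE factors gave 3, library totals 5, no filter 0 and the replicate block 0; library totals gave 9 for the MDP response. Members with few shared words gave 1 for GM against water in knockout. The replicate block gave 3 for the genotypes in water and 11 under GM (reported 23). Same-numbered libraries correlated above 0.1 in 4 of 45 pairs, all of them between wild-type groups. Wild-type water and GM correlated at 0.57 for replicate 2 and 0.54 for replicate 3, but at -0.21 for replicate 1. Wild-type GM and MDP correlated at 0.12 and 0.14 for replicates 2 and 3. The reported fits did not pair samples by number. Whether same-numbered wild-type libraries share a source is not stated in the labels and was not tested. Leaving out 1 library at a time gave ranges of 0 to 0 (GM against water, wild type), 0 to 43 (MDP against water, wild type), 0 to 16 (GM against MDP, wild type), 2 to 2, 11 to 18 and 5 to 13 (the same in knockout), 1 to 46, 7 to 29 and 46 to 53 (genotypes in water, GM and MDP), 0 to 0 (GM response) and 0 to 21 (MDP response). The 43, 46 and 21 came without replicate 3 of wild-type water. The mt-Nd6 value for the genotypes in water ran from -0.28, without that library, to 0.19 (0.01 as reported). Of single-gene values under other settings 6037 kept direction and side of the threshold, 395 lost and 175 gained a call, and 1 turned. The cause was not tested. Depth was similar in all libraries; members under 1 CPM give no usable fold.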
